A study of Homo sapiens with 6 samples.

Results

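Polycomb repressive complex 2 (PRC2), the H3K27 demethylases and the ASXL/BAP1 deubiquitinase were examined in Kasumi-1 cells incubated with the histone deacetylase inhibitor I13. The 10 genes were chosen by their place in this chromatin system and not by how they moved: EZH1, EZH2, SUZ12, EED and JARID2 of PRC2, the demethylases KDM6A and KDM6B, and ASXL1, ASXL2 and BAP1. All 10 were found among the 32364 genes of the expression table, and all 10 passed the filter on low values. I13 did not move any of them past the test. In each of the 10 genes the FPKM values (fragments scaled to exon length and to the mapped fragments of the library) of the control and I13 libraries overlapped, and the fitted folds lay between 0.943 for KDM6B and 1.05 for EZH2.

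Kasumi-1 is an acute myeloid leukemia line that carries the RUNX1-RUNX1T1 fusion, and histone deacetylases, which I13 inhibits, remove acetyl groups from histones. The control group was 3 libraries of Kasumi-1 cells incubated for 48 h with control, which the methods of the study describe as the vehicle DMSO. The I13 group was 3 libraries of the same line incubated for 48 h with 0.5 µM I13. Both groups carry the fusion, so a change relative to blood cells without it was not measured.

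PRC2 places methyl groups on a lysine of histone H3 (the H3K27me3 mark), through EZH2 or its paralog EZH1, and genes carrying the mark are kept silent. KDM6A and KDM6B remove that mark, and the BAP1 enzyme with an ASXL protein removes ubiquitin from histone H2A, the mark placed by PRC1. In myeloid leukemia several of these genes, ASXL1 and EZH2 among them, are recurrently mutated.

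The libraries held between 15281052 and 17221345 fragments. Control replicate 3 and I13 replicate 2 stood apart from the other 4 libraries on the first principal component, which took 43.3% of the variance of 4133 well expressed genes (mean FPKM 10 or more), and that axis did not separate control from I13. The second component, with 20.5% of the variance, did, at 2.28 to 3.58 in control and -3.15 to -2.50 in I13. Genes of high GC content tended to be above their 6-library mean in these 2 libraries and below it in the others. Across 4132 genes, which are not independent replicates, the correlation of a gene's deviation with the GC content of its transcript was 0.56 in control replicate 3, 0.63 in I13 replicate 2 and between -0.48 and -0.32 in the other 4. Nothing in the labels says that the replicates are separate cultures, so the p-values measure only the spread between these libraries. Over all 18726 genes tested by limma the smallest Benjamini-Hochberg adjusted p was 0.275, and 0% of the genes passed the adjusted threshold of 0.05. The libraries carried the markers of the line, with KIT between 196 and 236 FPKM, CD34 between 38.3 and 45.9 FPKM, MPO between 10241 and 12450 FPKM, CD33 between 10.8 and 13.7 FPKM, RUNX1 between 32.0 and 36.1 FPKM and RUNX1T1 between 12.5 and 14.4 FPKM. Of the markers of other cell types, COL1A1 and ALB were listed at 0 in every library and CD3E reached at most 0.106 FPKM. The exception was the epithelial marker EPCAM, at 20.8 to 26.5 FPKM in both groups, and HBB was not analysed here.

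Part of the SUZ12 transcript is nearly identical to SUZ12P1, a transcribed pseudogene at chr17:30709299-30790908 (plus strand, GRCh38), and reads from this part can be assigned to either gene. A stretch of 90 bases of the SUZ12 coding sequence, transcript positions 504 to 593 counted from the first base, is shown with its counterpart at positions 835 to 924 of SUZ12P1, both from GENCODE 29, with the 1 differing base in capitals.
SUZ12: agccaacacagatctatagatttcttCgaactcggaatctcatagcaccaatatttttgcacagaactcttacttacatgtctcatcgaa
SUZ12P1: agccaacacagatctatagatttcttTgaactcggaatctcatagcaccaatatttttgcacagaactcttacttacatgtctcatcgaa
Over 642 aligned bases 633 were identical (98.6%). Of the distinct 50-base windows of SUZ12 transcripts, 6.57% also occurred in SUZ12P1. The other 9 members shared at most 0.742% of their windows with another gene, the highest being EZH2 with EZH2P1, which was not analysed here.

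The bases upstream of the annotated starts of both catalytic genes and of SUZ12 are shown because E2F factors, which act at the G1/S transition, are known regulators of PRC2 genes in cycling cells. They are RefSeq promoters (GRCh38.p14), written on the gene's strand and cut where an annotated exon begins. Capitals mark an E2F octamer (TTTGGCGC, TTTCCCGC, TTTGCCGC or TTTCGCGC) or CCAAT, on either strand.
EZH1, chr17:42745050-42745290, minus strand: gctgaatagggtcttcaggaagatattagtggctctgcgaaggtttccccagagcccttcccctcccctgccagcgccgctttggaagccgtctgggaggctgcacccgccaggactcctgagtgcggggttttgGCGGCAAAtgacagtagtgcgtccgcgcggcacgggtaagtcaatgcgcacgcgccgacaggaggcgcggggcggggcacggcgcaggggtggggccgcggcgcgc
EZH2, chr7:148884322-148884541, minus strand: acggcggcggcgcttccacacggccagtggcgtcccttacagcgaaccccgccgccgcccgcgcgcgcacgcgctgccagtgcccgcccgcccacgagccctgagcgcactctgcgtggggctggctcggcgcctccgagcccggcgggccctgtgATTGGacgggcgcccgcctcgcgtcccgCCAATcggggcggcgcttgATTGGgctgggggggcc
SUZ12, chr17:31936757-31937006, plus strand: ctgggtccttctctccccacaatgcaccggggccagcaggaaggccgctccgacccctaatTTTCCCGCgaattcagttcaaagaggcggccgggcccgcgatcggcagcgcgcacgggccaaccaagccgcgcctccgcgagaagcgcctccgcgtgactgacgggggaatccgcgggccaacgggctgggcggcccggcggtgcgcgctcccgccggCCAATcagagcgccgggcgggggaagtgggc
Within 250 bases upstream of the first listed start, an E2F octamer was found in 2 of the 9 members with an entry, EZH1 and SUZ12, against 2.79% of 35116 promoters. CCAAT was found in 5 of the 9 (EZH2, SUZ12, EED, JARID2 and KDM6A) against 32.0% of all. In the EED window the longest stretch without an annotated exon was 41 bases, and the CCAAT of EED was not within that stretch. The window of EZH2 held 38 CpG, that of SUZ12 34 and that of EZH1 26, against a median of 11 over all promoters. EED was at that median, with 11 CpG, and the other 8 members were above it. The members were counted by the first start, whereas the values over all promoters take in every listed start. The promoters behind those values were not matched to the members in CpG content, so the comparison cannot tell whether a motif is enriched in these genes. These matches describe letters only, and binding was not measured.

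Compared per length, the members covered a range of levels from 2.85 to 34.4 FPKM as means of the 6 libraries. EZH2 was highest (34.4 FPKM), then BAP1 (25.2 FPKM), JARID2 (18.3 FPKM), ASXL1 (17.7 FPKM), SUZ12 (15.8 FPKM), EZH1 (9.02 FPKM), ASXL2 (7.52 FPKM), KDM6B (5.05 FPKM), KDM6A (4.73 FPKM) and EED (2.85 FPKM). JARID2 and ASXL1 overlapped in their ranges over the 6 libraries, as did KDM6B and KDM6A, and no other neighbours in this order did. The levels rested on between 314 fragments, for EED in I13 replicate 2, and 2884 fragments, for ASXL1 in control replicate 2. The deposited ASXL1 values gave whole fragments with an exon length of 9454 bases, whereas the GENCODE 29 exons sum to 13676 bases, so its level relative to other genes depends on the annotation. In a bulk sample fewer cells that express a gene and less RNA per cell cannot be told apart.

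**Figure D1:**
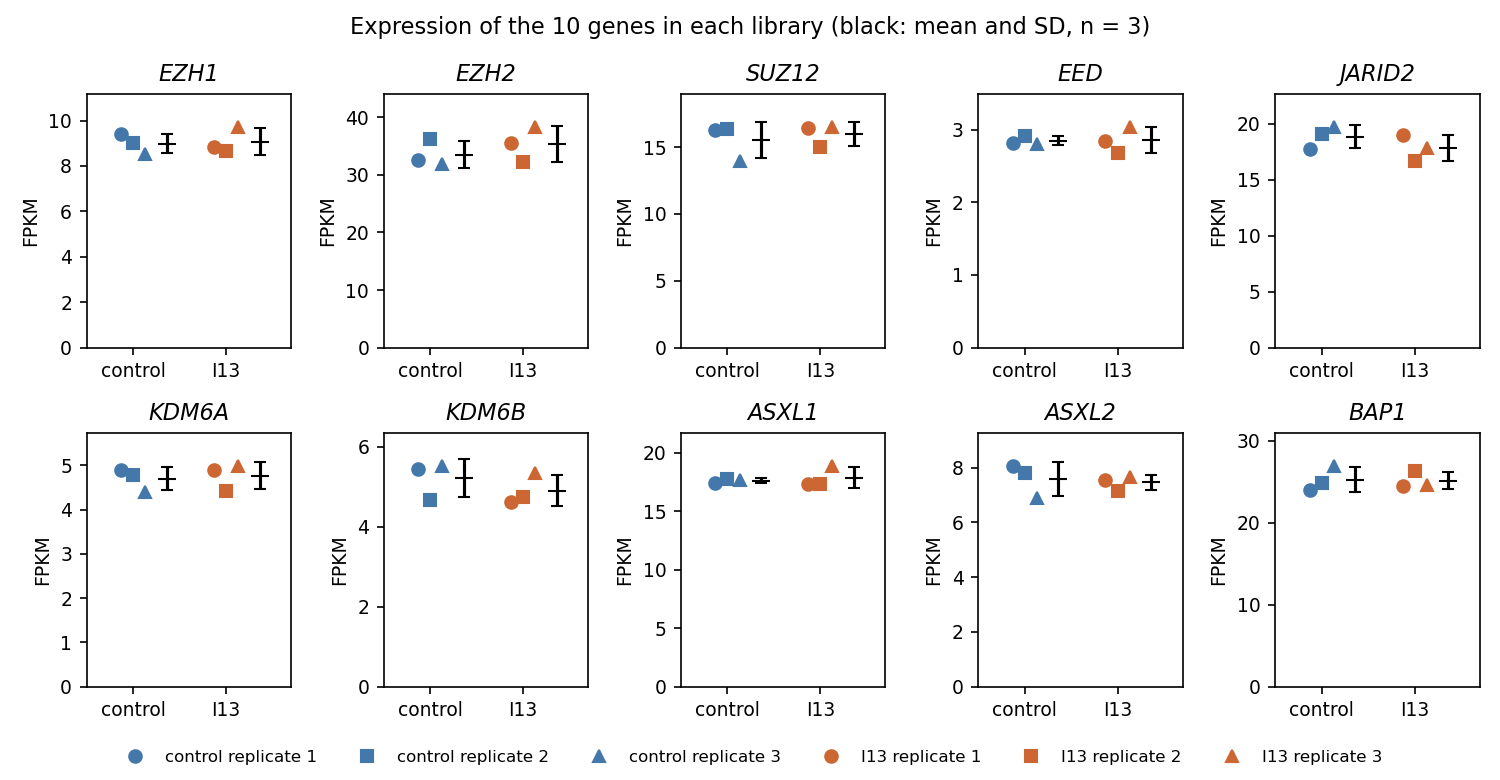
FPKM of the 10 genes, 1 panel each on its own axis from 0, in the 3 control (blue) and 3 I13 (orange) libraries, with the mean and SD of each group in black. The panels run from EED, with a mean of 2.85 FPKM, to EZH2, at 34.4 FPKM, and control and I13 points overlap in every gene.

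EZH2 (ENSG00000106462, chr7:148807383-148884321, minus strand, 22 exon blocks), the catalytic subunit that prevails in dividing cells, was at 32.5, 36.2 and 31.8 FPKM in control replicates 1 to 3 and at 35.5, 32.2 and 38.3 FPKM in I13 replicates 1 to 3. The highest value was an I13 library and the lowest a control library, and the other 4 interleaved. The means were 33.5 ± 2.34 FPKM in control and 35.3 ± 3.06 FPKM in I13 (SD, n = 3 each). The log2 fold change was 0.076 ± 0.080 (SE), with a 95% interval from -0.11 to 0.26 and a limma adjusted p of 0.995. On the linear scale this interval runs from 0.925-fold to 1.20-fold. EZH1 (ENSG00000108799, chr17:42700275-42745049, minus strand, 23 exon blocks), the paralog found also in resting cells, was at 9.39, 8.99 and 8.54 FPKM in control and at 8.85, 8.64 and 9.73 FPKM in I13. Its groups overlapped, with means of 8.97 ± 0.424 and 9.07 ± 0.578 FPKM (SD, n = 3 each). For EZH1 the log2 fold change was 0.015 ± 0.072 (SE), with a 95% interval from -0.15 to 0.18 and a limma adjusted p of 1.00.

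EZH2 exceeded EZH1 in every library. The ratio of EZH2 to EZH1 in FPKM was 3.46, 4.03 and 3.73 in control replicates 1 to 3 and 4.01, 3.73 and 3.94 in I13 replicates 1 to 3. The control range enclosed all 3 I13 ratios. The mean ratios were 3.74 ± 0.284 in control and 3.89 ± 0.146 in I13 (SD, n = 3 each), given without a test.

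SUZ12 (ENSG00000178691, chr17:31937018-32001045, plus strand, 16 exon blocks), a core subunit that holds the complex together, was at 16.3, 16.4 and 14.0 FPKM in control and at 16.4, 15.0 and 16.5 FPKM in I13. Control replicate 3 was the lowest library and I13 replicate 2 the next. SUZ12 had a log2 fold change of 0.043 ± 0.079 (SE), with a 95% interval from -0.14 to 0.23 and a limma adjusted p of 1.00. Its near copy SUZ12P1 had between 368 and 409 fragments in control and between 355 and 412 in I13, where SUZ12 had between 1517 and 1839 and between 1637 and 1714. Both pairs of ranges overlapped. EED (ENSG00000074266, chr11:86244544-86278813, plus strand, 10 exon blocks), the subunit that binds the methylated mark, was at 2.81, 2.92 and 2.80 FPKM in control and at 2.84, 2.68 and 3.04 FPKM in I13. I13 held both its highest and its lowest library. In EED the log2 fold change was 0.0028 ± 0.092 (SE), with a 95% interval from -0.21 to 0.22 and a limma adjusted p of 1.00. EED had the fewest fragments of the members, and counting alone gives it a coefficient of variation of 5.51%, against 1.90% for ASXL1.

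JARID2 (ENSG00000008083, chr6:15246296-15522040, plus strand, 20 exon blocks), an accessory subunit that helps recruit PRC2, was at 17.8, 19.1 and 19.7 FPKM in control and at 19.0, 16.6 and 17.9 FPKM in I13. I13 replicate 2 was the lowest library and control replicate 3 the highest, and the remaining values interleaved. The means were 18.9 ± 1.02 FPKM in control and 17.8 ± 1.17 FPKM in I13 (SD, n = 3 each). Its log2 fold change was -0.081 ± 0.069 (SE), with a 95% interval from -0.24 to 0.081 and a limma adjusted p of 0.983, the lowest adjusted p of the 10 genes. The difference came to 0.0010 in the 4 libraries without control replicate 3 and I13 replicate 2, and to -0.25 between those 2 libraries.

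KDM6A (ENSG00000147050, chrX:44873177-45112602, plus strand, 31 exon blocks), also called UTX, was at 4.90, 4.78 and 4.41 FPKM in control and at 4.90, 4.42 and 4.996 FPKM in I13. Control replicate 3 and I13 replicate 2 were again the lowest libraries. KDM6A had a log2 fold change of 0.022 ± 0.085 (SE), with a 95% interval from -0.18 to 0.22 and a limma adjusted p of 1.00. KDM6B (ENSG00000132510, chr17:7839904-7854796, plus strand, 24 exon blocks), also called JMJD3 and known as an inducible demethylase, was at 5.43, 4.66 and 5.52 FPKM in control and at 4.61, 4.74 and 5.34 FPKM in I13. The lowest library was I13 replicate 1 and the highest control replicate 3, with the others mixed. For KDM6B the log2 fold change was -0.085 ± 0.099 (SE), with a 95% interval from -0.32 to 0.15 and a limma adjusted p of 0.995. This was the widest interval of the 10 genes and reached down to 0.802-fold. The ratio of KDM6A to KDM6B was 0.903, 1.03 and 0.798 in control and 1.06, 0.932 and 0.936 in I13. Neither demethylase was above the other in all libraries.

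ASXL1 (ENSG00000171456, chr20:32358330-32439319, plus strand, 14 exon blocks), the best known partner of BAP1 in myeloid cells, was at 17.4, 17.8 and 17.6 FPKM in control and at 17.3, 17.3 and 18.9 FPKM in I13. I13 replicate 3 was above the other libraries, which lay close together. ASXL1 had a log2 fold change of 0.019 ± 0.054 (SE), with a 95% interval from -0.11 to 0.15 and a limma adjusted p of 1.00. ASXL2 (ENSG00000143970, chr2:25733753-25878516, minus strand, 15 exon blocks), its paralog, was at 8.07, 7.80 and 6.89 FPKM in control and at 7.55, 7.15 and 7.67 FPKM in I13. The control libraries enclosed the I13 libraries, with control replicate 3 lowest. For ASXL2 the log2 fold change was -0.021 ± 0.079 (SE), with a 95% interval from -0.21 to 0.17 and a limma adjusted p of 1.00. BAP1 (ENSG00000163930, chr3:52401013-52410350, minus strand, 15 exon blocks), the deubiquitinase itself, was at 24.0, 24.8 and 26.99 FPKM in control and at 24.5, 26.4 and 24.6 FPKM in I13. Here control replicate 3 and I13 replicate 2 were the highest libraries, opposite to SUZ12 and EZH2. In BAP1 the log2 fold change was -0.0056 ± 0.062 (SE), with a 95% interval from -0.15 to 0.14 and a limma adjusted p of 1.00.

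ASXL1 exceeded ASXL2 in every library. The ratio of ASXL1 to ASXL2 was 2.16, 2.28 and 2.56 in control and 2.29, 2.42 and 2.46 in I13, which overlap. With the ASXL1 fragments, recovered at 9454 bases, divided by the GENCODE 29 exon length of 13676 bases, the mean ratio was 1.63 in place of 2.36. Fragments counted over 1 exon length are there divided by another, so 1.63 is not a ratio measured under GENCODE 29. ASXL3, the remaining family member, had at most 1 fragment in any library and was not tested.

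**Figure D2:**
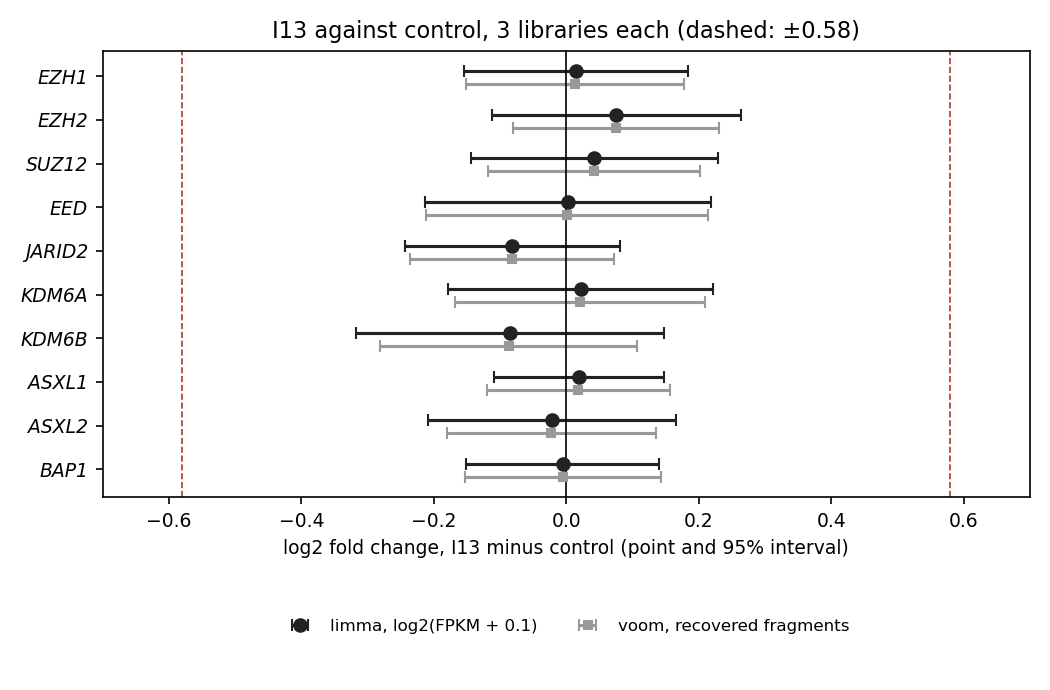
Log2 fold change of I13 against control for the 10 genes, with 95% intervals, from limma on log2(FPKM + 0.1) in black and voom on the recovered fragments in grey, and dashed lines at 0.58 in either direction, the study's fold threshold. Every interval includes 0 and lies inside the lines, the widest limma interval being that of KDM6B from -0.32 to 0.15.

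Of the 10 genes, 0 passed the adjusted threshold in limma, where 0% of all genes did. At an unadjusted p under 0.05 the count was also 0 of 10, where 5.14% of the 18726 genes (2.55% higher and 2.59% lower in I13) and 4.7% of the 7528 genes in the same range of levels passed. No member had groups without overlap, against 9.52% of all genes (4.88% higher and 4.64% lower in I13). Voom on the recovered fragments gave 0 of 10 at either threshold as well, where 0.0362% of 13811 genes passed the adjusted and 5.36% the unadjusted threshold. Of the members 6 lay above 0 and 4 below, with a median log2 fold change of 0.0089 against 0.0058 over all genes tested. The median absolute log2 fold change was 0.022 over the members and 0.059 over the genes in their range of levels. Each 95% interval stayed within 0.802-fold to 1.20-fold. These intervals bound the size of a change at this spread, and a p that misses the threshold does not show that the levels were the same. An exact permutation test of 3 against 3 libraries cannot go below 0.1.

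The 2 libraries that stood apart were also read for the members. Control replicate 3 and I13 replicate 2 were both below the other 4 libraries in 6 of the 10 genes, namely EZH1, EZH2, SUZ12, EED, KDM6A and ASXL2, where this held for 27.2% of the 7528 genes in their range of levels. BAP1 alone was above the other 4 in both, where this held for 13.9%. JARID2, KDM6B and ASXL1 did neither. The deviation of the pair from the mean of all libraries was -0.12 on the log2 scale for SUZ12, whose transcript has a GC content of 38.0%, and -0.10 for EZH2, at 42.7%. It was 0.082 for BAP1, at 60.4%, and 0.023 for KDM6B, at 62.4%. The KDM6B value averages 0.13 in control replicate 3 and -0.085 in I13 replicate 2. For the remaining members it was -0.052 for EED (33.0%), -0.096 for ASXL2 (41.7%) and -0.098 for KDM6A (43.5%). ASXL1 (49.3%) was at -0.019, JARID2 (50.2%) at -0.015 and EZH1 (50.5%) at -0.069. The part of GC content in these deviations was not tested. Between the 4 other libraries alone, the log2 difference of I13 and control was 0.11 for EZH2, 0.014 for SUZ12, 0.014 for EZH1 and 0.035 for EED. Between control replicate 3 and I13 replicate 2 it was 0.016 for EZH2, 0.099 for SUZ12, 0.016 for EZH1 and -0.062 for EED.

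**Figure D3:**
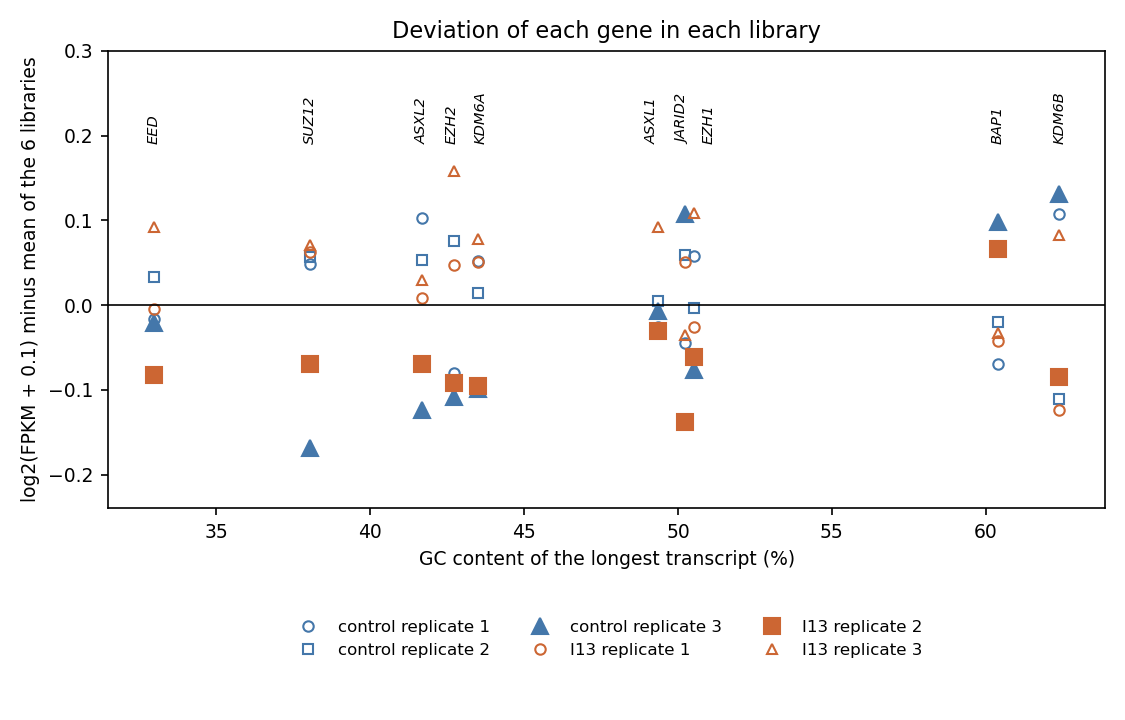
Deviation of each gene in each library from its mean over the 6 libraries, as log2(FPKM + 0.1), against the GC content of its longest transcript, with control replicate 3 and I13 replicate 2 as filled symbols. The filled symbols lie below 0 for the genes of lower GC content such as SUZ12 and EZH2 and above 0 for BAP1.

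The other subunits of these complexes were read from 5 lists of 50 genes in all, of which 49 were tested. None passed the adjusted threshold, and 2 of 49 (4.08%) passed the unadjusted one, beside 5.14% of all genes. The groups did not overlap in 7 of 49 (14.3%), 2 higher and 5 lower in I13, beside 9.52% of all genes.

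Of the PRC2 partners, 9 of 9 were tested, 3 lay above 0 and 6 below, and none passed the unadjusted threshold (median log2 fold change -0.025). RBBP4, the histone-binding core subunit, was the highest at 27.4 ± 1.65 FPKM in control and 26.9 ± 1.19 FPKM in I13 (SD, n = 3 each). PHF1, a Polycomb-like accessory subunit, had the largest difference, from 9.51 ± 0.781 to 8.40 ± 0.324 FPKM (SD, n = 3 each). Its values were 8.64, 9.72 and 10.2 FPKM in control and 8.09, 8.73 and 8.39 FPKM in I13, which overlap. The log2 fold change of PHF1 was -0.17, with an unadjusted limma p of 0.0604 and an adjusted p of 0.947. PHF1 passed the unadjusted threshold in 3 of 19 alternative settings, with a p of 0.0172 without control replicate 1.

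Canonical PRC1, which binds the H3K27me3 mark, had 7 of its 14 genes above 0 and 7 below (median log2 fold change -0.028). CBX2, a subunit that reads the mark, was the highest, at 45.1 ± 2.90 FPKM in control and 42.8 ± 1.87 FPKM in I13 (SD, n = 3 each). PCGF2 had the largest difference of the list, 0.29 on the log2 scale, but rested on 8 to 21 fragments a library. Its adjusted limma p was 0.996. In variant PRC1, 4 of 10 genes lay above 0 and 6 below, and none passed the unadjusted threshold (median log2 fold change -0.017). BCOR, its highest member, was at 11.2 FPKM in control and 10.9 FPKM in I13. YAF2, with the largest difference, was at 1.42 FPKM in control and 1.25 FPKM in I13, a log2 fold change of -0.17.

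Of the complex of KMT2C and KMT2D in which KDM6A resides, 4 of 9 genes lay above 0 and 5 below (median log2 fold change -0.0058). WDR5, a shared core subunit, was the highest, at 38.4 FPKM in control and 38.6 FPKM in I13. PAGR1, a small subunit specific to this complex, was at 0.58, 0.993 and 0.922 FPKM in control and at 1.18, 1.37 and 1.19 FPKM in I13. The groups of PAGR1 did not overlap, on 17, 29 and 26 fragments in control and 32, 39 and 31 in I13. Its log2 fold change was 0.56 ± 0.22 (SE), with an unadjusted limma p of 0.0365 and an adjusted p of 0.947. The unadjusted threshold was missed in 7 of 19 alternative settings.

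Of the partners of BAP1 and ASXL, 7 of 8 were tested, 2 lay above 0 and 5 below, and none passed the unadjusted threshold (median log2 fold change -0.0078). HCFC1, the cofactor that BAP1 binds, was at 40.2 FPKM in both groups. KDM1B, a histone H3 demethylase, had the largest difference, with values of 15.3, 13.7 and 12.2 FPKM in control and 11.6, 11.3 and 12.9 FPKM in I13, which overlap. The log2 fold change of KDM1B was -0.19, with an unadjusted limma p of 0.0821 and an adjusted p of 0.948. KDM1B passed the unadjusted threshold in 5 of 19 alternative settings, with a p of 0.0179 without control replicate 3 and 0.0366 in voom.

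**Figure D4:**
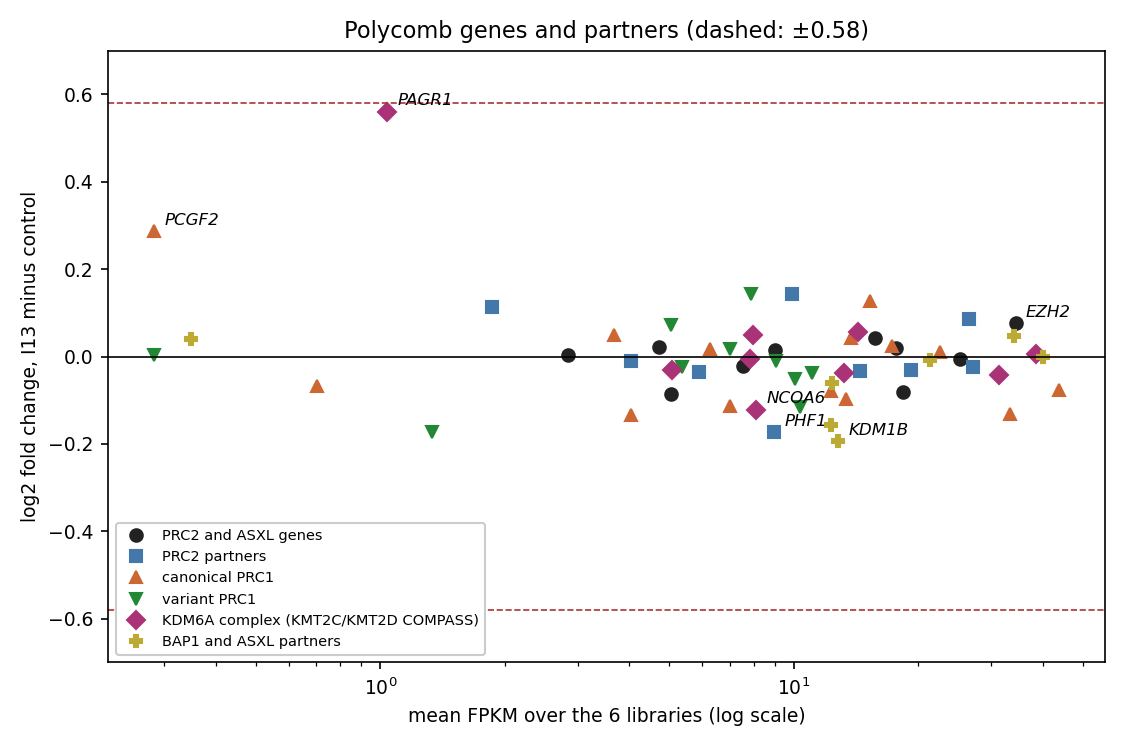
Log2 fold change of I13 against control for each tested gene of the 10 members and the 5 partner lists, against its mean FPKM on a log axis, with dashed lines at 0.58 in either direction. The members lie between -0.085 and 0.076, KDM1B is at -0.19 and PAGR1, near 1 FPKM, at 0.56.

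Control replicate 3 and I13 replicate 2 were picked for a term in the fit because they stood apart in these same data. With this term, 9 of the 49 partner genes (18.4%) passed the unadjusted threshold, beside 7.62% of all genes. Among these, CBX6, PCGF6 and PAGR1 were higher in I13, and PHF1, BMI1, BCORL1, NCOA6 and KDM1B were lower. The names of those outside the rule for named genes were taken after their values were seen. None passed the adjusted threshold, and of the 10 members 0 passed either threshold in that fit. Without these 2 libraries, 3 of the 49 partner genes (6.12%) passed the unadjusted threshold, beside 8.04% of all genes. With the GC trend of each library removed, a setting chosen after seeing the data, 7 of the 49 partner genes (14.3%) and 0 of the 10 members passed the unadjusted threshold, beside 7.26% of all genes.

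The cells' proliferation genes were read beside the members because EZH2 is known to follow the cell cycle. All 6 of MKI67, TOP2A, PCNA, MCM2, CCNB1 and E2F1 had a log2 fold change above 0 (median 0.066), where 9702 of the 18726 genes tested lay above 0. Of the 6 genes, 2 passed the unadjusted threshold, both higher in I13, where 2.55% of all genes did so. PCNA, the sliding clamp of DNA replication, was at 143 FPKM in control and 156 FPKM in I13, and E2F1 at 25.0 and 28.2 FPKM. Their unadjusted limma p-values were 0.0448 and 0.0390, and the adjusted p was 0.947 for both. In voom the unadjusted p of PCNA was 0.0696. Their part in the EZH2 values was not tested.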

How the data were processed

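Messenger RNA of 6 Kasumi-1 libraries, 3 control and 3 I13 (0.5 µM, 48 h), was sequenced from TruSeq Stranded mRNA libraries. The values deposited by the authors are FPKM, 1 per gene and library in a single table, and no further scaling was applied. The submitters' processing notes name Trimmomatic, HISAT2, Cufflinks, HTSeq and hg38. Versions, the annotation, the strand setting and the treatment of reads that map to several places are not stated by any source used here. Samples were grouped by their labels. Genes were named by GENCODE 29, which holds 32244 of the 32364 identifiers, and 5269 genes were at 0 in every library.

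I13 and control were compared by two-sided tests of limma 3.58.1 (R 4.3.3) on log2(FPKM + 0.1), with a variance trend, over the 18726 genes whose mean FPKM was 0.1 or more, and p-values were adjusted over all of them by the Benjamini-Hochberg method. Fold changes on this scale are understated for low genes. Fragments were recovered as FPKM times exon length: 25773 of 27002 genes (95.4%) gave whole fragments in all 6 libraries within 0.01. Counting error was taken from these fragments and does not include the spread between cultures. Voom took the genes whose mean was 10 or more fragments.

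The members and lists were chosen with earlier results of these data known. Named partners are the highest gene, the gene with the largest absolute log2 fold change and any gene at an unadjusted p under 0.05 of each list. Some genes of the lists enter the counts but are not reported here by name. Alternatives were other pseudocounts, filters and scalings, each library left out, a replicate block, other variance models and voom. Others were a term for or removal of the 2 libraries that stood apart, which were picked from these data. Removal of the GC trend was added after seeing the data. Correlations between members were foreseen but are not given, because the libraries fall into 2 sets. Same-numbered libraries did not deviate together in every pair (correlations 0.32, -0.38 and -0.30), so the numbers were not taken as pairs.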

Additional observations from a re-analysis of the deposited data

How the results depend on the processing

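Over 19 alternative settings none of the 10 members passed 0.05, adjusted or unadjusted, in any. The smallest unadjusted limma p was 0.103, for EZH2 without I13 replicate 2. EZH2 and KDM6B kept their direction in all 19. The number of partner genes at an unadjusted p under 0.05, 2 as reported, was 0 with a minimum mean FPKM of 1, 1 with median scaling, 1 with limma without a trend, 1 with trend and robust variances, 9 with the term for the 2 libraries, 7 with the GC trend removed, and between 0 and 3 with 1 library left out (0 without I13 replicate 1, 1 without I13 replicate 2, 0 without I13 replicate 3). With the replicate number as a block it was 1, and 862 genes in place of 963 passed over all genes. The block changed no other call of the members. Some log2 fold changes near 0 changed sign: EED to -0.0037 and WDR5 to -0.00075 with median scaling, WDR5 to -0.021 with quantile normalization, EED to -0.017 with the GC trend removed, and JARID2 to 0.0010, BAP1 to 0.0079, BCOR to 0.0012 and WDR5 to -0.058 without both libraries that stood apart. With 1 library left out the log2 fold change ranged from -0.036 to 0.049 for EZH1, -0.031 to 0.088 for SUZ12, -0.042 to 0.045 for EED, -0.022 to 0.076 for KDM6A, -0.022 to 0.040 for ASXL1, -0.088 to 0.024 for ASXL2, -0.042 to 0.042 for BAP1, 0.016 to 0.14 for EZH2, -0.16 to -0.041 for KDM6B, -0.13 to -0.033 for JARID2, 0.015 to 0.51 for PCGF2, -0.23 to -0.070 for YAF2, -0.070 to 0.017 for RBBP4, -0.046 to 0.032 for WDR5 and -0.064 to 0.055 for HCFC1. The ratio of ASXL1 to ASXL2 was 1.63 by the annotated length, since that length is longer than the one behind the FPKM values. The causes of the other shifts were not tested. Over all genes, 0 passed the adjusted threshold as reported, 9 with limma without a trend, 5 with voom and 2 without I13 replicate 1.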
